A study of Mus musculus with 22 samples.

Results

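The EGF receptor family and its ligands were followed in RNA-seq of whole mouse pancreas. Members were taken by name: every row whose gene name was one of the ligands Egf, Areg, Ereg, Hbegf, Tgfa and Btc or one of the receptors Egfr, Erbb2, Erbb3 and Erbb4. Of these 10 names, 8 had a row among the 16235 genes listed. Areg and Ereg were not analysed here, Erbb4 had values at postnatal day 10 only, and the other 7 members had counts in all 22 libraries.

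The ligands are made as membrane-bound precursors, from which metalloproteases of the ADAM family release the soluble factor. A bound receptor pairs with another member of the family, and the pair signals through RAS, RAF, MEK and ERK and through PI3 kinase and AKT. Erbb2 has no known ligand of its own, and the kinase domain of Erbb3 is impaired, so both act through their partners. In the mouse pancreas, signalling through Egfr is known to drive the conversion of enzyme-producing acinar cells to duct-like cells after injury.

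The study removed Ehmt2, which encodes the histone H3 lysine 9 methyltransferase G9a, from cells of the pancreatic lineage, and asked how the tissue responded to caerulein, a cholecystokinin analog that causes acute pancreatitis when given in excess. All mice carried a Cre and were kept on a C57Bl/6 background. Untreated Pdx1-Cre mice were taken at postnatal day 10 (PN) as 3 Ehmt2+/+ and 3 Ehmt2fl/fl, and as young adults (YA, 4 weeks) as 2 Ehmt2+/+ and 3 Ehmt2fl/fl. Caerulein-treated mice (AP, acute pancreatitis, also 4 weeks old) comprised a Pdx1-Cre cohort of 4 Ehmt2+/+ and 2 Ehmt2fl/fl, and a P48-Cre cohort of 2 Ehmt2+/+ and 3 Ehmt2fl/fl. Pdx1-Cre is a transgene active from the pancreatic progenitor, and P48-Cre is a knock-in at the Ptf1a locus. Immune, endothelial and stromal cells lie outside both lineages and keep Ehmt2. The treated mice were fasted for 12 h and then given 8 injections of caerulein at 50 μg/kg each. Their pancreas was collected 18 h from the start of dosing, the only time point. The methods mention a saline control, while no fast or saline is recorded for the YA libraries. Treatment, fast and cohort therefore cannot be told apart, nor can age and cohort.

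Each library came from 1 mouse and held 14229980 to 40321967 counts. Digestive enzyme transcripts, the defining product of acinar cells, took 55.2 to 67.5% of counts in YA, 47.8 to 56.4% in PN and 25.9 to 45.9% after caerulein. Ehmt2 itself ranged from 25.8 to 42.1 CPM in PN, 41.2 to 59.8 in YA and 27.7 to 56.8 after caerulein, and no genotype contrast of Ehmt2 passed the test, with log2 differences of -0.07 in PN, 0.14 in YA and -0.27 ± 0.15 (SE) over the treated mice (edgeR adjusted p = 0.290). In treated Pdx1-Cre, both Ehmt2fl/fl mice (45.7 and 45.8 CPM) were below the 48.2 to 56.8 of their controls, and the genotypes overlapped in the other groups. A gene-level count also takes in exons outside a floxed segment and cells outside the Cre lineage, so it does not check the labels. CPM here is the deposited count brought to a common library size, each library total being multiplied by a TMM factor that removes the effect of a few very abundant transcripts. The factors were 0.263 to 0.450 in YA, 1.34 to 1.91 in PN, 0.864 to 1.09 in treated Ehmt2+/+ and 1.38 to 1.84 in treated Ehmt2fl/fl libraries. Unscaled totals moved the median of all genes by -2.16 on the log2 scale between ages, after caerulein by 1.45 (Ehmt2+/+) and 2.25 (Ehmt2fl/fl), and by 0.83 between treated genotypes, so each change below is relative to the bulk of genes. A gene passed when edgeR's quasi-likelihood test gave an adjusted p (Benjamini-Hochberg, over all genes tested) under 0.1 and at least a 2-fold difference. In whole tissue, fewer cells of a type and less RNA per cell cannot be told apart.

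The members lie apart in the genome (GRCm38). Egf (ENSMUSG00000028017) spans chr3:129677565-129755316 on the minus strand, Tgfa (ENSMUSG00000029999) spans chr6:86195223-86275719 on the plus strand, and Btc (ENSMUSG00000082361) spans chr5:91357261-91402994 on the minus strand. Among the receptors, Egfr (ENSMUSG00000020122, chr11:16752203-16918158) and Erbb2 (ENSMUSG00000062312, chr11:98412470-98437716) share a chromosome and the plus strand, Erbb3 (ENSMUSG00000018166) spans chr10:128567523-128589652 on the minus strand, and Erbb4 (ENSMUSG00000062209) spans chr1:68032186-69108059 on the minus strand.

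The 250 bases upstream of the annotated start are shown for the ligand that fell after caerulein (Egf), for a ligand that rose in the treated Ehmt2fl/fl pancreas (Btc), for the ligand that passed in no contrast (Tgfa) and for the receptor that binds all 3 (Egfr). Sequences are from RefSeq on GRCm38.p6, 5′ to 3′ on the strand of the gene, and capitals mark matches, on either strand, to the AP-1 motif TGANTCA, the cAMP response element TGACGTCA, the GC box GGGCGG, the TATA box TATAAA or the E-box CACCTG. The windows are chr3:129755323-129755572 for Egf, chr5:91402995-91403244 for Btc, chr6:86194972-86195221 for Tgfa and chr11:16751953-16752202 for Egfr.
Egf: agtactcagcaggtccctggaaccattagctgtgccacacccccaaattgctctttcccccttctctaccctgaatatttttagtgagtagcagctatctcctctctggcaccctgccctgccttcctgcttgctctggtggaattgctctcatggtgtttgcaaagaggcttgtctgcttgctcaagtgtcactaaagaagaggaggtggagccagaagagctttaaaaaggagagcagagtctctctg
Btc: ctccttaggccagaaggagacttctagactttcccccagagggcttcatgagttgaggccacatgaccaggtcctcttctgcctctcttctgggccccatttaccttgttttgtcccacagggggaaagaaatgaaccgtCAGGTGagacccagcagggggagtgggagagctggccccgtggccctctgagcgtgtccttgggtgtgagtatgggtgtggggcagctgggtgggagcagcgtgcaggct
Tgfa: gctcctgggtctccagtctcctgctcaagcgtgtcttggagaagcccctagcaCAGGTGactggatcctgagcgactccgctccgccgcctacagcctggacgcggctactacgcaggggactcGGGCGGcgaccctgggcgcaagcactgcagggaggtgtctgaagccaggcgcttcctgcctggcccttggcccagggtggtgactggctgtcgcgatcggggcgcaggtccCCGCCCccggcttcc
Egfr: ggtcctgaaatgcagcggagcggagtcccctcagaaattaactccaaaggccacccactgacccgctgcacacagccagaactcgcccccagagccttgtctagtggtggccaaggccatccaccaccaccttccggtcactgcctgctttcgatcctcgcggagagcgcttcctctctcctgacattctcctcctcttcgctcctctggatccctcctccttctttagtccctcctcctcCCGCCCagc
The Egf window held none of these letters, the Btc window 1 E-box, the Tgfa window 1 E-box and 2 GC boxes, and the Egfr window 1 GC box, with no match overlapping another. Neither AP-1 nor cAMP response element letters occurred in these 4 windows. Over the 32851 promoter windows of the same length, 6.75% held the AP-1 motif, 1.55% the cAMP response element, 32.7% the GC box, 12.4% the TATA box and 17.2% the E-box. These are matches of letters and say nothing of binding.

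Egf, the founding ligand of the family, had the widest range of any member. In YA it stood at 153 and 95.8 CPM in Ehmt2+/+ and at 160, 124 and 87.1 in Ehmt2fl/fl, while the PN mice had 26.1, 15.1 and 19.7 (Ehmt2+/+) and 23.4, 15.7 and 28.1 (Ehmt2fl/fl). In treated mice it stood at 5.75, 4.71, 5.41 and 6.27 CPM in Pdx1-Cre Ehmt2+/+, at 1.95 and 2.34 in Pdx1-Cre Ehmt2fl/fl, at 5.14 and 7.32 in P48-Cre Ehmt2+/+ and at 2.83, 2.87 and 2.10 in P48-Cre Ehmt2fl/fl. The 8 groups thus formed 4 levels that did not overlap, namely both YA groups, both PN groups, both treated Ehmt2+/+ groups and both treated Ehmt2fl/fl groups, and within each level the paired groups overlapped.

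**Figure D1:**
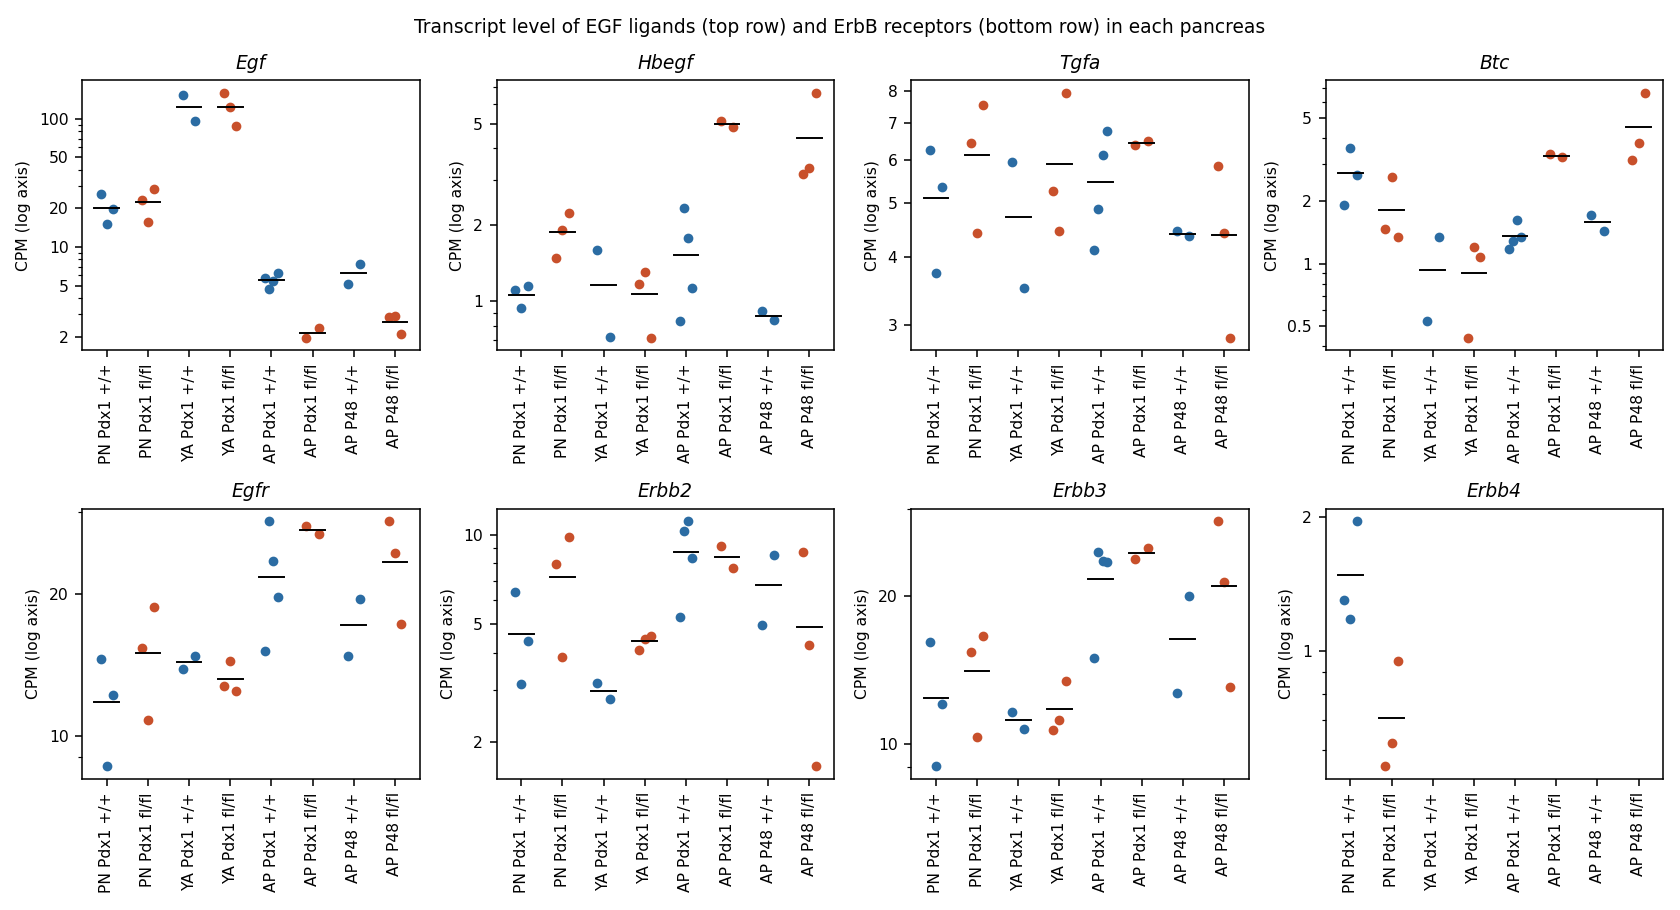
CPM (log axis) of each of the 8 members in every mouse (points) with the group mean (bars), by age, treatment and driver, blue for Ehmt2+/+ and red for Ehmt2fl/fl. Egf steps down from YA (87.1 to 160 CPM) over PN (15.1 to 28.1) to the treated groups (1.95 to 7.32), while Hbegf and Btc are higher in the treated Ehmt2fl/fl mice.

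Between PN and YA, over both genotypes, 2 of the 7 members tested passed, where 17.5% of all genes did. Egf was 5.82-fold higher in YA (log2 difference 2.54 ± 0.24 SE, edgeR adjusted p = 2.25e-05) and higher in every YA mouse than in any PN mouse, a separation seen for 25.9% of all genes. With unscaled library totals the Egf difference was 0.31 and did not pass. The share of counts taken by digestive enzymes was also higher in YA, and its part in the Egf difference was not tested. Btc, betacellulin, a ligand of Egfr and Erbb4 first isolated from a beta cell tumour line, went the other way. Its level was 1.92, 3.59 and 2.66 CPM in PN Ehmt2+/+, 1.47, 2.61 and 1.34 in PN Ehmt2fl/fl, 0.529 and 1.34 in YA Ehmt2+/+ and 0.439, 1.19 and 1.07 in YA Ehmt2fl/fl, on 3 to 13 counts per YA library. The authors did not list Btc in their YA genotype comparison, so these YA counts come from their caerulein comparisons. Its place in this test may thus rest on the PN and treated mice, where its counts were higher. Btc was 2.33-fold lower in YA (log2 -1.22 ± 0.35, edgeR adjusted p = 0.0174), and without replicate 1 of YA Ehmt2+/+ the difference was -0.98 and did not pass. Of 7 islet markers 4 were lower in YA (median -1.20, summed level 1080 to 1959 CPM against 1731 to 5066 in PN), and of 8 fibroblast and stellate cell markers 6 were lower (median -1.88, 521 to 1118 against 1799 to 4864). Their part in the Btc difference was not tested. Erbb2 was lower in YA by a log2 difference of -0.68 ± 0.27 (edgeR adjusted p = 0.0681), under the 2-fold limit, and Hbegf, Tgfa, Egfr and Erbb3 had differences between -0.37 and 0.05 that did not pass.

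The genotypes of untreated mice were compared at each age. No member passed in PN (8 tested) or YA (7 tested), where 0.679% and 0.328% of all genes passed. In PN, 2 members had an unadjusted p under 0.05, which 1343 of all 13394 genes had, and DESeq2 called no member. In YA both member counts were 0, where 1214 of all 13104 genes had such a p. The PN member farthest from 0 was Erbb4, a receptor for neuregulins as well as Hbegf and Btc, at 1.30, 1.18 and 1.96 CPM in Ehmt2+/+ and 0.552, 0.622 and 0.951 in Ehmt2fl/fl, from 15 to 72 counts a library. These groups did not overlap (log2 -1.05 ± 0.34, edgeR adjusted p = 0.381, from the PN groups alone). Hbegf (ENSMUSG00000024486, chr18:36504927-36515805, minus strand), heparin-binding EGF-like growth factor, did not overlap in PN either, at 1.10, 0.94 and 1.14 CPM in Ehmt2+/+ and 1.47, 1.90 and 2.22 in Ehmt2fl/fl (log2 0.80 ± 0.32, edgeR adjusted p = 0.429). In all, 2 of 8 members did not overlap in PN, where 14.4% of all genes did not. In YA the single member of 7 without overlap, where 28.2% of all genes had none, was Erbb2, at 3.17 and 2.79 CPM against 4.10, 4.45 and 4.56 (log2 0.55 ± 0.44, edgeR adjusted p = 0.845). Egf differed between the genotypes by 0.12 ± 0.31 in PN and -0.03 ± 0.34 in YA. The difference between the ages in the genotype effect passed for 0 of 7 members, with 0.0336% of all genes passing, no member at an unadjusted p under 0.05 and none called by DESeq2.

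Within PN, Egf, Tgfa, Egfr, Erbb2 and Erbb3 shared a low replicate in each genotype. Erbb4 was lowest in the same replicate in Ehmt2+/+ (1.18 CPM in replicate 2), but in Ehmt2fl/fl replicate 1 was lowest (0.552 against 0.622 in replicate 2). Erbb2 was 6.42, 3.13 and 4.37 CPM in Ehmt2+/+ and 7.95, 3.86 and 9.81 in Ehmt2fl/fl, and the balance of long to short transcripts, a per-library log2 measure that moves with RNA quality, was 0.346, -0.475 and -0.159 and then 0.420, -0.211 and 0.424 in the same order. Replicate 2 of each genotype was lowest in Egf, Tgfa, Egfr, Erbb2, Erbb3 and the balance alike. Btc was instead highest in replicate 2 of each genotype, at 3.59 CPM in Ehmt2+/+ and 2.61 in Ehmt2fl/fl. The part of RNA quality in these levels was not tested.

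Caerulein was next compared with no treatment in Pdx1-Cre mice, the YA groups serving as untreated controls in both this contrast and the age contrast. In Ehmt2+/+, 2 of 7 members passed, where 20.0% of all genes did. Egf was 22.5-fold lower after caerulein (log2 -4.49 ± 0.24, edgeR adjusted p = 2.18e-06). Erbb2, the co-receptor without a ligand of its own, was 2.94-fold higher (log2 1.56 ± 0.31, edgeR adjusted p = 0.00310), at 5.28, 10.3, 11.1 and 8.31 CPM against 3.17 and 2.79. Erbb3, the partner of Erbb2 in the neuregulin receptor, stood at 14.97, 24.6, 23.5 and 23.5 CPM against 11.6 and 10.7, a difference of 1.93-fold that stayed under the 2-fold limit (edgeR adjusted p = 0.00642). Egfr stood at 15.1, 28.7, 23.5 and 19.7 CPM against 13.9 and 14.8 (log2 0.60 ± 0.23, edgeR adjusted p = 0.0733), also under 2-fold. Every treated Ehmt2+/+ mouse was thus above every untreated one for these 3 receptors, in a contrast where 46.7% of all genes did not overlap. Hbegf, Tgfa and Btc overlapped between the groups, with log2 differences of 0.44 ± 0.49, 0.22 and 0.48 ± 0.42.

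In Ehmt2fl/fl, 6 of 7 members passed after caerulein, where 33.2% of all genes did. Egf was 55.0-fold lower (log2 -5.78 ± 0.34, edgeR adjusted p = 3.18e-06). Hbegf rose from 1.17, 1.30 and 0.71 CPM to 5.14 and 4.83, which was 4.96-fold (log2 2.31 ± 0.46, edgeR adjusted p = 0.00191). Btc rose from 0.439, 1.19 and 1.07 CPM to 3.35 and 3.24, which was 3.66-fold (log2 1.87 ± 0.39, edgeR adjusted p = 0.00241). The untreated libraries held few reads of both, Hbegf having 7 to 12 counts in each of the 5 YA libraries. Neither ligand was listed in the authors' YA genotype comparison. Their YA counts come from the caerulein comparisons, where the listing may rest on the treated mice in which both were higher. All 3 receptors rose by close to 2-fold. Egfr went from 12.7, 14.4 and 12.4 CPM to 28.0 and 26.9 (log2 1.12 ± 0.23, edgeR adjusted p = 0.00263), Erbb3 from 10.7, 11.2 and 13.4 to 23.8 and 25.1 (1.11 ± 0.21, adjusted p = 0.00141) and Erbb2 from 4.10, 4.45 and 4.56 to 9.12 and 7.73 (2.01-fold, SE 0.28 on the log2 scale, adjusted p = 0.0129). Erbb2 lay at the 2-fold limit and kept its call in 8 of 19 alternative settings, with a log2 difference of 0.87 to 0.99 where it was lost, and Erbb3 fell to 0.98 with the long-to-short balance as a term and to 0.99 without replicate 1 of YA Ehmt2fl/fl. Tgfa, transforming growth factor alpha, a ligand of Egfr alone, was 5.27, 4.45 and 7.95 CPM before and 6.38 and 6.49 after (log2 0.18 ± 0.29, edgeR adjusted p = 0.646).

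The difference between the genotypes in the caerulein effect passed for 0 of 7 members by edgeR, where 1.25% of all genes passed. Egf differed by -1.29 ± 0.36 (adjusted p = 0.147), Hbegf by 1.87 ± 0.68 (adjusted p = 0.257) and Btc by 1.39 ± 0.58 (adjusted p = 0.316). These 3 were the members with an unadjusted p under 0.05, which 1893 of all 13468 genes tested had. DESeq2 called 1 member, Egf, at -1.34 with an adjusted p of 0.0326. A member past the threshold in Ehmt2fl/fl and not in Ehmt2+/+ was therefore not shown to respond differently.

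**Figure D2:**
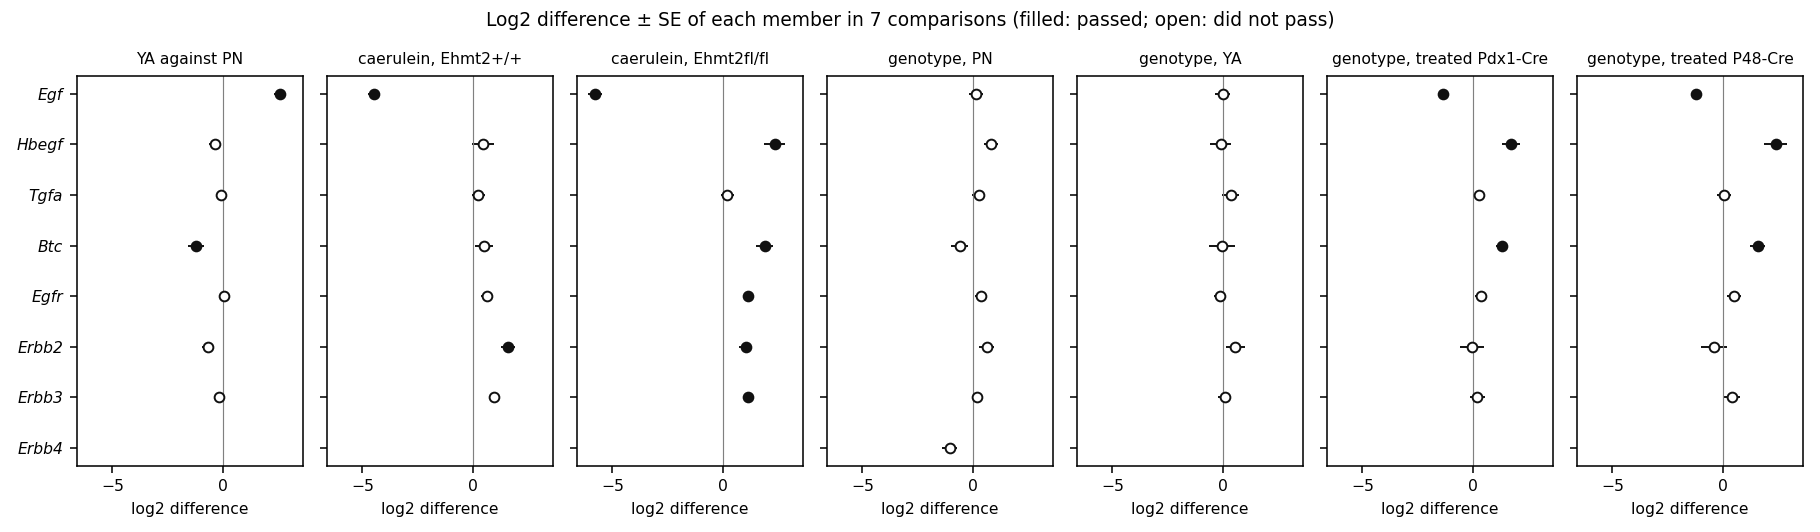
Log2 differences of the members (points, with SE as bars) in the comparisons, filled where the adjusted p was under 0.1 and the difference at least 2-fold and open otherwise. Egf is the member farthest below 0 in both caerulein contrasts (-4.49 and -5.78), and Egf, Hbegf and Btc alone are filled in the treated genotype contrasts.

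The treated mice were then compared by genotype within each driver. With Pdx1-Cre, 3 of 7 members passed, where 7.09% of all genes did, and with P48-Cre the same 3 passed, where 5.96% did. Egf was lower and Hbegf and Btc were higher in Ehmt2fl/fl, and for these 3 members no Ehmt2fl/fl mouse overlapped an Ehmt2+/+ mouse of its driver. In these small groups 37.2% of all genes did not overlap with Pdx1-Cre and 35.7% with P48-Cre, so the separation alone is common. The other 4 members overlapped between the genotypes under both drivers. The Pdx1-Cre Ehmt2+/+ mice here are also the treated mice of the caerulein contrast above, so the 2 contrasts are not independent.

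Egf was 2.55-fold lower in Pdx1-Cre Ehmt2fl/fl (log2 -1.35 ± 0.23, edgeR adjusted p = 0.0105) and 2.33-fold lower in P48-Cre Ehmt2fl/fl (-1.22 ± 0.22, adjusted p = 0.0206), at the CPM values given above. Hbegf was 0.84, 2.33, 1.77 and 1.13 CPM in Pdx1-Cre Ehmt2+/+ and 5.14 and 4.83 in Ehmt2fl/fl, and 0.91 and 0.84 in P48-Cre Ehmt2+/+ and 3.17, 3.36 and 6.63 in Ehmt2fl/fl. The lowest Ehmt2fl/fl mouse of either driver was above the highest Ehmt2+/+ mouse. The difference was 3.27-fold with Pdx1-Cre (1.71 ± 0.41, edgeR adjusted p = 0.0387) and 5.11-fold with P48-Cre (2.35 ± 0.51, adjusted p = 0.0344). Btc was 1.17, 1.28, 1.62 and 1.34 CPM in Pdx1-Cre Ehmt2+/+ and 3.35 and 3.24 in Ehmt2fl/fl, and 1.71 and 1.44 in P48-Cre Ehmt2+/+ and 3.15, 3.79 and 6.63 in Ehmt2fl/fl. Again all 5 Ehmt2fl/fl mice were above all 6 Ehmt2+/+ mice, by 2.45-fold with Pdx1-Cre (1.29 ± 0.29, edgeR adjusted p = 0.0288) and 2.93-fold with P48-Cre (1.55 ± 0.33, adjusted p = 0.0330).

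With both drivers in 1 model the same 3 of 7 members passed, where 8.07% of all genes did. Pooled over the drivers, these 3 members also had no overlap between the 5 Ehmt2fl/fl and 6 Ehmt2+/+ mice, which held for 10.8% of all genes. Egf was 2.44-fold lower (log2 -1.29 ± 0.16, edgeR adjusted p = 0.000459), Hbegf 3.99-fold higher (2.00 ± 0.32, adjusted p = 0.00222) and Btc 2.66-fold higher (1.41 ± 0.21, adjusted p = 0.00148). Leaving out any 1 treated mouse kept all 3 calls in this model. Within a driver, an omission that left a group with 1 mouse lost calls by edgeR with little change in most differences. Without replicate 1 of Pdx1-Cre Ehmt2fl/fl none of the 3 passed, at log2 differences of -1.23 for Egf, 1.66 for Hbegf and 1.26 for Btc, and without replicate 2 of that group Hbegf (1.76, adjusted p = 0.144) and Btc (1.32, 0.125) did not. In P48-Cre Ehmt2+/+, leaving out replicate 1 lost Hbegf (2.40, adjusted p = 0.140) and Btc (1.67, 0.117), and leaving out replicate 2 lost Egf (-0.93), Hbegf (2.31) and Btc (1.45). The P48-Cre groups fitted alone by edgeR left Egf at -1.23 (adjusted p = 0.112) and Btc at 1.54 (0.141). The difference between the drivers in the genotype effect passed for 0 of 7 members by edgeR, where 0.00% of all genes passed, 0 members had an unadjusted p under 0.05 and DESeq2 called none. For Hbegf that difference was 0.64, with an SE as large as the value itself.

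The receptors and Tgfa did not pass between the treated genotypes. Over both drivers the differences were 0.41 ± 0.20 for Egfr (edgeR adjusted p = 0.221), 0.29 for Erbb3 (0.481), -0.22 for Erbb2 (0.768) and 0.15 for Tgfa (0.696). Egfr was 28.0 and 26.9 CPM in Pdx1-Cre Ehmt2fl/fl, within the 15.1 to 28.7 of its controls. In P48-Cre Ehmt2fl/fl it was 28.6, 24.5 and 17.3 CPM, the last below the 19.6 of 1 control. Erbb2 in those 3 mice was 8.73, 4.25 and 1.66 CPM, its lowest value of all 22 libraries being in replicate 3. That mouse was also lowest of its group in Tgfa, Egfr and Erbb3 and had a long-to-short balance of -0.756 against -0.121 and -0.300 in the other P48-Cre Ehmt2fl/fl mice. The same mouse was the highest of all 22 libraries in Hbegf and Btc, at 6.63 CPM each. The part of RNA quality in these lower and higher levels was not tested.

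Levels per kilobase of exon put the ligands side by side within a library, independently of the scaling. Of the 4 ligands measured, Egf made up 90.2 ± 0.925% (SD, n = 2) in YA Ehmt2+/+ and 88.4 ± 5.07% (n = 3) in YA Ehmt2fl/fl, and 52.2 ± 6.38% and 52.8 ± 6.12% (n = 3 each) in PN. After caerulein Egf held 25.6 ± 4.94% (n = 4) of the Pdx1-Cre control total against 6.47 ± 0.875% (n = 2) in Ehmt2fl/fl, and with P48-Cre 31.2 ± 6.45% (n = 2) against 8.57 ± 2.77% (n = 3). The mean share of Hbegf was 16.0% in treated Ehmt2+/+ and 35.1% in Ehmt2fl/fl with Pdx1-Cre, and 10.3 and 31.3% with P48-Cre. Btc went from 15.4 to 24.8% and from 19.9 to 34.7%, and Tgfa from 43.0 to 33.7% and from 38.6 to 25.4%. The ligand makeup thus moved from mostly Egf in YA to a makeup led by Tgfa in treated Ehmt2+/+ and to one shared by Hbegf, Btc and Tgfa in treated Ehmt2fl/fl. Erbb3 had the largest share of the receptors, making up 47.0 to 53.8% of the summed level of Egfr, Erbb2 and Erbb3 in every group.

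**Figure D3:**
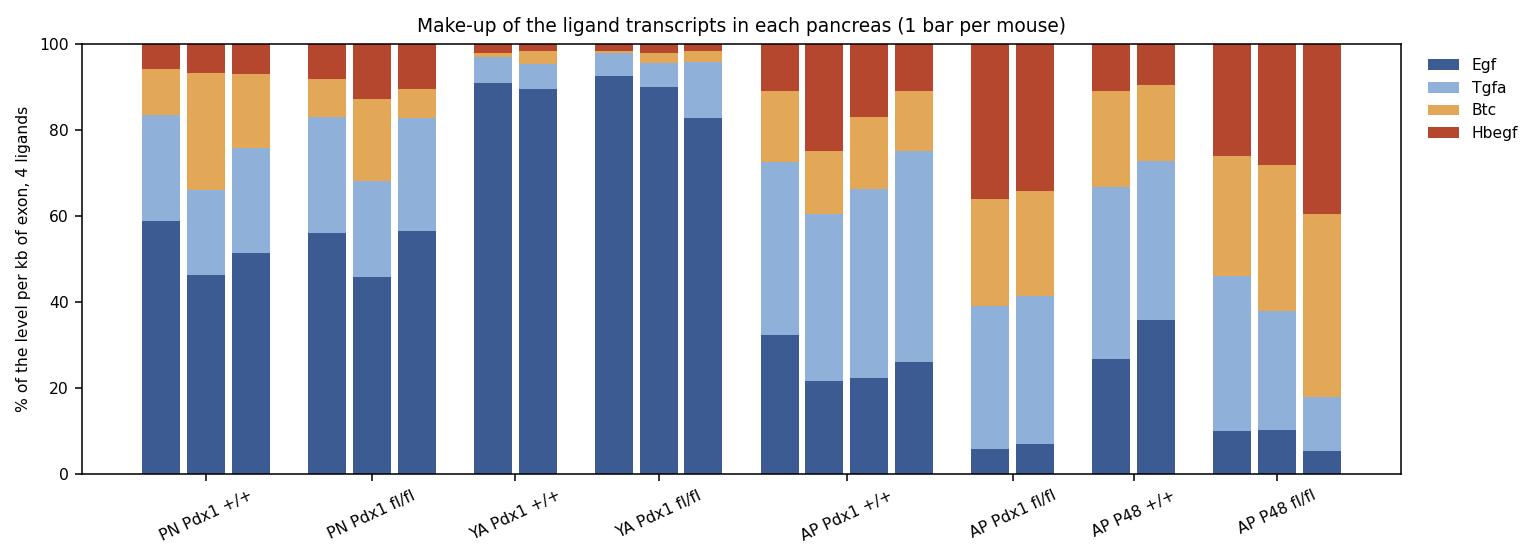
Stacked bars give, for each of the 22 mice, the percent of the summed level per kilobase of 4 ligands taken by Egf, Hbegf, Tgfa and Btc. Egf takes most of the bar in YA and the smallest part in the treated Ehmt2fl/fl mice, where the group means are 6.47 and 8.57%.

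Markers of some other cells also differed between the treated genotypes. The summed level of 11 macrophage and monocyte markers, all 11 of them with counts in each group, was 85.9 to 161 CPM in YA, 460 to 792 in treated Pdx1-Cre Ehmt2+/+ and 1264 to 1485 in Ehmt2fl/fl, and 372 to 629 and 1042 to 1965 in the P48-Cre groups. The 5 of 7 neutrophil markers listed in the treated libraries summed to 5.54 to 19.3 CPM against 37.3 to 61.1 with Pdx1-Cre, and to 3.64 to 5.07 against 31.8 to 67.0 with P48-Cre. Over both drivers 17 of 26 digestive enzymes were lower and 2 higher in Ehmt2fl/fl, and 5 of 10 duct markers were higher and 1 lower. The 8 islet markers summed to 173 to 681 CPM in treated Pdx1-Cre Ehmt2+/+ and 734 to 1543 in Ehmt2fl/fl, with 3 of 8 higher, and to 409 to 463 against 418 to 856.6 with P48-Cre, without a call by edgeR. Between the treated genotypes, Hbegf and Btc were higher where the macrophage and neutrophil markers were, and Btc also where the islet markers were with Pdx1-Cre. This did not hold in every contrast. After caerulein in Ehmt2+/+, 8 of 11 macrophage and monocyte markers were higher, while Hbegf (log2 0.44) and Btc (0.48) did not pass. In PN Ehmt2+/+, Btc was 1.92 to 3.59 CPM with macrophage and monocyte sums of 154 to 225 CPM. The 8 T, NK and B cell markers had median log2 differences of -0.61 with Pdx1-Cre and -0.95 with P48-Cre, without a call. Egf was lower where enzymes were called lower. The enzyme share of counts overlapped between the genotypes, at 28.1 to 45.9% in Ehmt2+/+ and 25.9 to 29.4% in Ehmt2fl/fl with Pdx1-Cre. With P48-Cre it was 33.3 to 37.0% and 31.1 to 37.0%. The part of these cells in the results was not tested. By Y-linked counts, in the Pdx1-Cre treated groups the 4 Ehmt2+/+ mice read as female and the 2 Ehmt2fl/fl mice as male, so sex and genotype cannot be told apart there, while both P48-Cre groups held both sexes.

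**Figure D4:**
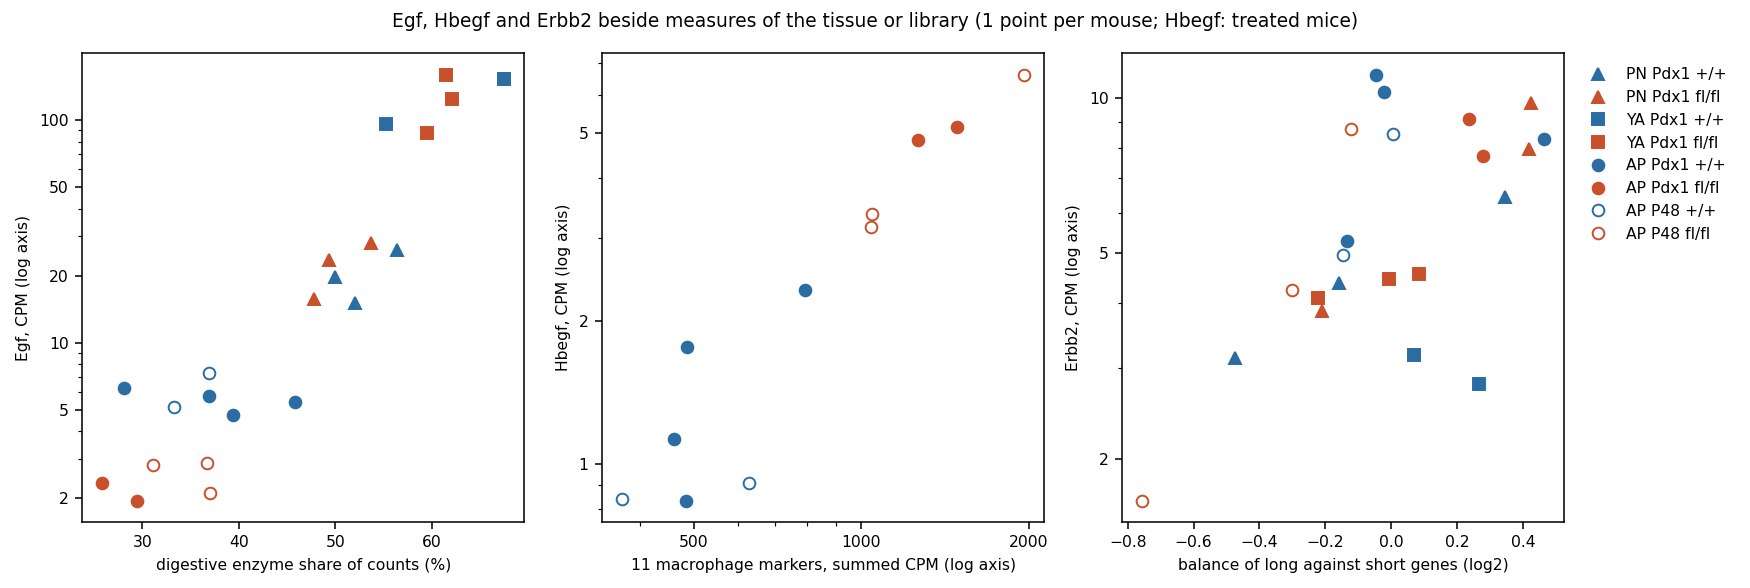
Each point is a library (filled for Pdx1-Cre, open for P48-Cre, blue for Ehmt2+/+ and red for Ehmt2fl/fl), with Egf against the percent of counts in digestive enzymes (22 libraries), Hbegf against the summed CPM of 11 macrophage and monocyte markers (11 treated libraries) and Erbb2 against the long-to-short balance (22 libraries). Egf is highest in the YA libraries, which hold 55.2 to 67.5% enzymes, but libraries of like share differ (26.1 CPM in a PN library at 56.4% and 95.8 in a YA library at 55.2%), Hbegf is high in the treated Ehmt2fl/fl libraries, whose marker sums begin at 1042 CPM, and the library with the lowest Erbb2 has the balance of -0.756.

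The other ligands of the family were looked up from a list. Nrg1, a neuregulin that binds Erbb3 and Erbb4, had no reads in the 3 YA Ehmt2fl/fl libraries and 69 and 43 counts in treated Pdx1-Cre Ehmt2fl/fl, at least 8.51-fold higher with the untreated group set at 3 counts in all. Without reads in YA, Nrg1 was listed in that comparison through the treated mice alone, so the direction of this rise was fixed by the listing. Between treated genotypes it had 112 counts in Ehmt2fl/fl and 20 in Ehmt2+/+ with Pdx1-Cre (ratio 6.64, exact counting interval 4.10 to 11.3), and 84 and 2 with P48-Cre (17.1, 4.58 to 143), and over both drivers edgeR gave a log2 difference of 3.13 ± 0.58 (adjusted p = 0.00442). These intervals cover counting error only. With so few Ehmt2+/+ counts, the listing of Nrg1 between treated genotypes may also rest on the Ehmt2fl/fl mice. The direction of these differences may thus be fixed by the listing too. Nrg4, a ligand of Erbb4, passed in no contrast, and Epgn, Nrg2 and Nrg3 were not analysed here.

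Among the sheddases and their iRhom cofactors, 3 of 8 were higher after caerulein in Ehmt2+/+ and 6 of 8 in Ehmt2fl/fl (median log2 0.88 and 1.37, beside 0.10 and 0.12 over all genes), where 10.4% and 18.5% of all genes were higher. Between YA genotypes 7 of this list were tested, so the 8 may include a gene listed through the treated mice, whose rise was then fixed. Adam12, which can cleave Hbegf, rose by 1.49 ± 0.42 (edgeR adjusted p = 0.0195) in Ehmt2+/+ and 3.36 ± 0.41 in Ehmt2fl/fl. Adam17, the main sheddase of Tgfa and Hbegf, rose by 1.16 ± 0.20 (edgeR adjusted p = 0.000716) and Adam15 by 1.61 ± 0.28 in Ehmt2fl/fl, and Rhbdf2, an iRhom needed for Adam17 maturation, rose by 1.29 ± 0.30 in Ehmt2+/+ and 1.58 ± 0.29 in Ehmt2fl/fl. Adam8, which is also made by myeloid cells, passed after caerulein in both genotypes, but with 0 and 39 counts in the YA Ehmt2+/+ libraries its fold there rests on 1 mouse. It was the 1 of 8 that passed between treated genotypes over both drivers (1.29 ± 0.26, edgeR adjusted p = 0.00721), where 8.07% of all genes did. With age, Adam12 was the 1 of 7 that passed, where 17.5% of all genes did. Adam12 was 7.98-fold lower in YA, where 6 of the 8 fibroblast and stellate cell markers were also lower, and their part was not tested. No sheddase passed between the genotypes of untreated mice.

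Feedback inhibitors of the receptors and of ERK rose after caerulein in 7 of 16 cases in Ehmt2+/+ and 8 of 16 in Ehmt2fl/fl (median 0.51 and 0.96), beside the 10.4% and 18.5% of all genes that were higher and medians of 0.10 and 0.12. Between YA genotypes 15 of these were tested, so the 16 may include a gene listed through the treated mice, whose rise was then fixed. Dusp6, a phosphatase of ERK, rose by 1.18 ± 0.31 and 2.02 ± 0.29 (edgeR adjusted p = 0.0144 and 0.000254). Spred1, an inhibitor of RAS, rose by 1.11 ± 0.24 and 1.61 ± 0.23. Without replicate 1 of YA Ehmt2+/+ the Ehmt2+/+ differences of Adam12 (1.04), Dusp6 (0.82) and Spred1 (0.96) no longer passed. Cbl, the ubiquitin ligase that sends Egfr for degradation, passed in Ehmt2fl/fl (1.98 ± 0.41). Between treated genotypes over both drivers 3 of 15 passed (5.32% of all genes were higher), all higher in Ehmt2fl/fl. These were Dusp6 (1.41 ± 0.13, edgeR adjusted p = 9.73e-05), Dusp5 (1.55 ± 0.20) and Errfi1, which binds and inhibits the Egfr kinase (1.42 ± 0.17, edgeR adjusted p = 0.000516). Errfi1 was the 1 gene of these lists for which the caerulein effect differed between the genotypes (1.53 ± 0.25, edgeR adjusted p = 0.0319), a call that 14 of 18 alternatives kept and that was lost with sex as a covariate, without replicate 2 of YA Ehmt2+/+ and without either treated Ehmt2fl/fl mouse.

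ERK-responsive transcripts rose in 8 of 12 cases after caerulein in each genotype (median 1.77 in Ehmt2+/+ and 2.66 in Ehmt2fl/fl, against 10.4% and 18.5% of all genes higher), and 7 of 13 were higher in treated Ehmt2fl/fl over both drivers (median 1.22, beside -0.01 over all genes), where 5.32% of all genes were higher. Between YA genotypes 9 of this list were tested, so some of the 12 and 13 may be listed only through the groups where they were high. Their rise would then be fixed by the listing, and these counts and medians carry that limit. Plaur, the urokinase receptor, rose after caerulein by 2.69 ± 0.56 in control mice and by 5.26 ± 0.53 in Ehmt2fl/fl mice. Between treated genotypes it was 3.63-fold higher in Ehmt2fl/fl (1.86 ± 0.26, edgeR adjusted p = 0.00108). Ier3, an immediate early gene, was 4.38-fold higher (2.13 ± 0.34), Fosl1, a component of AP-1, 3.17-fold (1.66 ± 0.32) and Ccnd1, cyclin D1, 2.38-fold (1.25 ± 0.16, edgeR adjusted p = 0.000565). Several of these genes are also expressed by myeloid cells, whose markers were higher in the same mice, and the part of those cells was not tested. With age 5 of 9 were lower in YA (median -1.21), where 10.6% of all genes and 6 of 8 fibroblast and stellate cell markers were lower. The part of those cells was not tested. The same YA mice enter the age and caerulein contrasts with opposite sign, so the opposite directions are not independent. In contrast, the 21 adaptors and kinases between receptor and ERK or AKT had a median of -0.11 between the treated genotypes, without a call. After caerulein 2 of these 21 passed in each genotype, where 20.0% of all genes passed in Ehmt2+/+ and 33.2% in Ehmt2fl/fl. In Ehmt2+/+ the RAS exchange factor Sos2 (log2 -1.21 ± 0.18) and the PI3 kinase subunit Pik3r1 (-1.10 ± 0.24) were lower. In Ehmt2fl/fl the GTPase Nras (1.80 ± 0.17) and the adaptor Grb2 (1.21 ± 0.17) were higher. With unscaled totals Sos2 and Pik3r1 in Ehmt2+/+ turned to 0.27 and 0.38, and Pik3r1 no longer passed without replicate 1 of YA Ehmt2+/+ (-0.91).

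**Figure D5:**
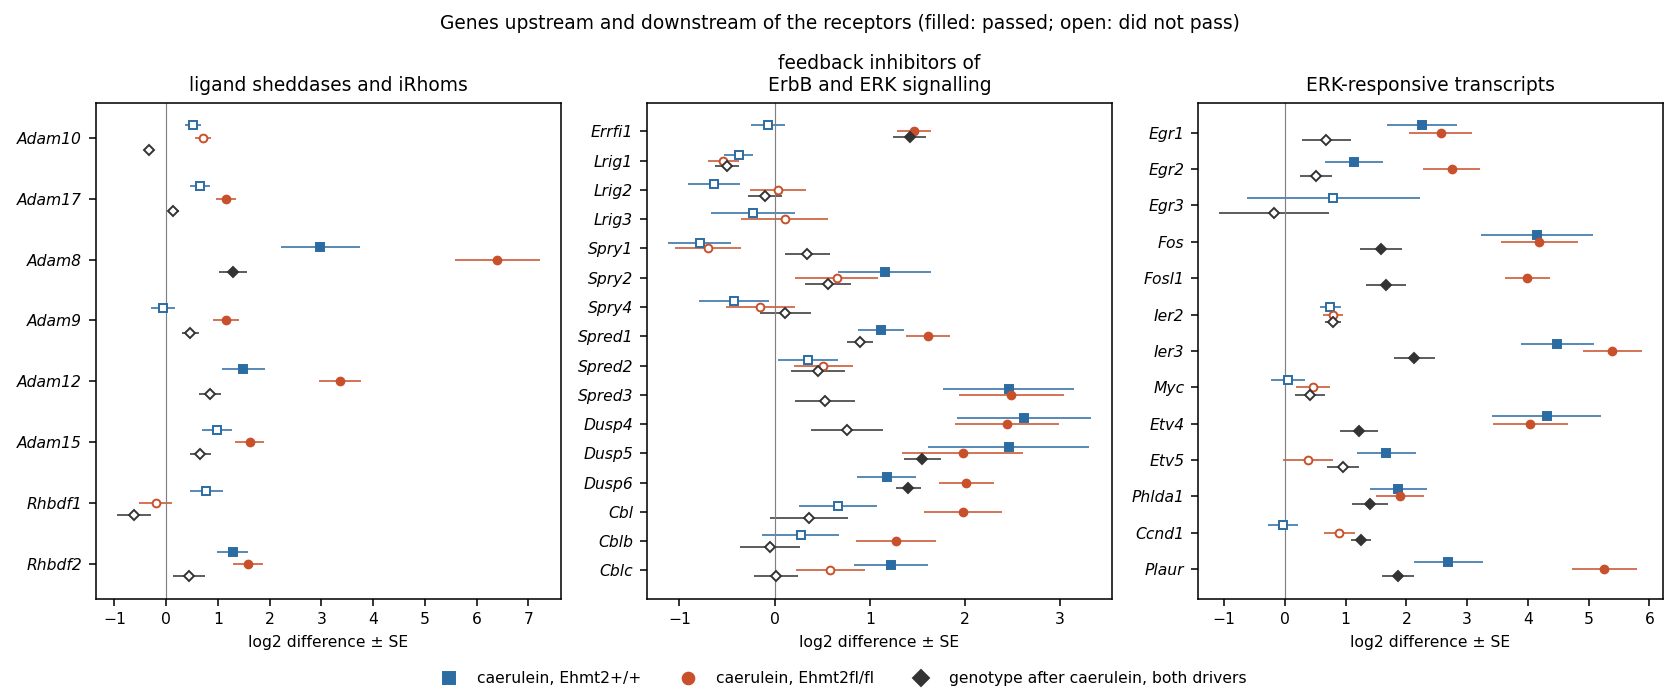
Log2 differences (points, with SE as bars) of the sheddases and iRhoms, the feedback inhibitors and the ERK-responsive transcripts. They are shown after caerulein in each genotype and between treated genotypes over both drivers, filled where they passed and open where they did not. The medians over both drivers are 0.45 for the sheddases and iRhoms, 0.46 for the feedback inhibitors and 1.22 for the ERK-responsive transcripts.

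Across the 22 libraries, Egfr and Erbb3 followed each other (Pearson r = 0.932 of log2(CPM + 1)), then Erbb2 and Erbb3 (0.783) and Hbegf and Btc (0.674), while Egf and Btc ran opposite (-0.692). Of 11400 genes, those most like Egf were Slc38a5, an amino acid transporter (r = 0.986), Gstm2 (0.984) and Pcca (0.981), and those most like Hbegf were F13a1, a clotting factor subunit (0.935), Arg1, arginase (0.919), and Gcnt2 (0.912). For Btc they were Wdr75 (0.945), Snx1 (0.904) and Ralb (0.901), and for Tgfa Irs2 (0.893), Sertad2 (0.857) and Spred2 (0.851). Egfr ran closest to Actn1 (0.951), Ywhag (0.95) and Fchsd1 (0.942), Erbb2 to Llgl1 (0.933), Tead3 (0.932) and Pld2 (0.930), and Erbb3 to Zyx (0.957), Osbpl5 (0.951) and Egr1 (0.944). The points share libraries, groups and scaling, so these values describe the set of 22 mice.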

How the data were processed

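RNA-seq (TruSeq RNA v2, Illumina HiSeq) was made from whole pancreas of 22 mice. Reads were aligned and counted by the authors with MAP-RSeq on GRCm38.p6 with Gencode annotation, and the deposited tables hold raw counts per gene. Deposited RPKM columns and the authors' own comparisons (log2 fold changes, p-values and adjusted p-values) were not used. The 6 tables list 10096 to 15144 genes each, filtered by the authors before deposit, and 11791 genes had counts in all 22 libraries. A library's counts in several tables were identical (134862 compared, 0 differed).

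Counts were tested with edgeR 4.0.16 (R 4.3.3, limma 3.58.1): TMM, filterByExpr (count minimum 10, total 15) and the quasi-likelihood F-test, in fits of the 4 untreated Pdx1-Cre groups, the 4 young Pdx1-Cre groups or the 4 treated groups. A gene without a row for every group of a fit was tested in the compared groups alone. DESeq2 1.42.0, other scalings, no filter, covariates and leaving out each mouse were alternatives. Scripts were tested on simulated data. Likeness used log2(CPM + 1) over genes with a mean of at least 1 CPM, naming 3 genes each. Python 3.11.15, pandas 2.3.3, numpy 2.4.6, scipy 1.17.1 and matplotlib 3.10.9 did the rest. Exon lengths and positions are from GENCODE on GRCm38, where 16222 genes were found and 13 were not. Promoter windows were matched by symbol, 6 of the 8 members having one.

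All members were named in each comparison, and of the other pathway genes up to 4 a list that passed, by lowest adjusted p. Members and lists were chosen with earlier results of these data known. Nothing beyond 1 mouse per library is recorded about batches, and P-values measure the spread between these mice.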

Additional observations from a re-analysis of the deposited data

Results flagged for a closer look

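Erbb3 in caerulein-treated Pdx1-Cre Ehmt2+/+ mice had 1 library far from the others, replicate 1 at 14.97 CPM against 23.5 to 24.6 in the other 3. Of the 7 members tested in this group of 4, it was the 1 that stood out, and chance gives about 1 such case in 20 groups.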

How the results depend on the processing

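Of the 19 member results that passed, 8 kept the call under every alternative run, and 321 of 351 alternatives kept theirs. For the other genes of the pathway, 40 of the 65 named results that passed kept it throughout, and no Ehmt2 result had passed. Unscaled library totals changed the count of members that passed to 6 with age (2 in the report), 7 after caerulein in Ehmt2+/+ (2), 3 for the genotype by caerulein interaction (0) and 5 between treated Pdx1-Cre genotypes (3). They reversed Egfr with age (-2.12), Map2k2 with age (-1.15), Sos2 (0.27) and Pik3r1 (0.38) after caerulein in Ehmt2+/+, and Ehmt2 with age (-1.53) and after caerulein in Ehmt2fl/fl (2.02). With unscaled totals Egf was no longer past the limits with age (0.31), in treated Pdx1-Cre (-0.48), in treated P48-Cre (-0.41) or over both drivers (-0.45). DESeq2 called 1 member (Egf) in the genotype by caerulein interaction, and the P48-Cre groups fitted alone left 1 of 3 calls. The cause was not tested. Leaving out each mouse in turn gave 0 to 0 members for both untreated genotype contrasts, their difference and the genotype by driver interaction, 1 to 2 with age, 2 to 3 after caerulein in Ehmt2+/+, 4 to 6 in Ehmt2fl/fl, 0 to 1 for the genotype by caerulein interaction, 0 to 3 between the treated genotypes within each driver and 3 to 3 over both drivers. Adjusting for the long-to-short balance was chosen after seeing the data except in the PN and YA genotype contrasts, and sex could not be a covariate in treated Pdx1-Cre mice. No paired analysis was possible because the labels pair no mice across groups. Groups of 2 to 4 mice, and fewer than 15 counts of Hbegf and Btc in YA libraries, limit what could be detected.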
